A study of Mus musculus with 6 samples.

Results

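The genes described here encode 10 cell surface receptors and co-receptors for transforming growth factor beta (TGF-beta), activins and bone morphogenetic proteins (BMPs). They were taken by gene symbol from a table of 41064 mouse genes. All 10 passed the filter on low counts, as did 20132 genes in the whole table. RNA came from aortas of mice given Ang II (angiotensin II, a peptide that raises blood pressure and provokes remodelling of the vessel wall). The genotype labels are WT in 3 samples and JOSD2 KO in the other 3. Both groups received Ang II, so untreated aorta is not compared here. The labels name no strain, age, dose or duration, nor how the knockout allele was made. Per the series title, the study asks whether JOSD2, a deubiquitinase, restrains this remodelling by sparing SMAD7, an inhibitor of the receptors described below, from degradation.

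Ligands of this family bind pairs of transmembrane kinases. A type II receptor, which is always active, phosphorylates a type I receptor, and the type I receptor then phosphorylates SMAD transcription factors. TGF-beta and activin receptors mainly activate SMAD2 and SMAD3, whereas BMP receptors and ALK1 activate SMAD1, SMAD5 and SMAD9. In vessels, endoglin and ALK1 are best known from endothelial cells and carry signals of BMP9 and BMP10, while TGF-beta receptors of smooth muscle are needed to keep the wall intact. Loss of these genes causes inherited vascular disease in people, among them hereditary haemorrhagic telangiectasia (endoglin, ALK1), Loeys-Dietz syndrome (both TGF-beta receptor kinases) and pulmonary arterial hypertension (the BMP type II receptor).

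Total counts per library lay between 63612353 and 75886761, and the 10 receptors had between 744 and 13156 counts each in single libraries. Josd2, the targeted gene, had 1649, 1762 and 1890 counts in wild type and 1742, 1737 and 1780 in the samples labelled knockout (-0.52 on the log2 scale defined below, SE 0.07, edgeR adjusted p = 0.000244). With library totals the difference was -0.11 (edgeR adjusted p = 0.231). Because its transcript was still present, these samples are called the libraries labelled knockout, and each direction rests on the label. Smooth muscle genes were abundant in every library, with a summed level of 12 markers of 7386 to 9298 FPKM (fragments counted per length of transcript and per depth of library). The extraction text speaks of an adipose type, and the sum of 9 adipocyte markers was 102 to 109 FPKM in wild type against 181 to 182 FPKM in the libraries labelled knockout. Markers of kidney, lung and seminal vesicle reached 18.3 to 19.6 FPKM in sum in wild type, against 0.386 to 0.714 FPKM in the libraries labelled knockout, and their part in the receptor values was not tested. The design text gives 3 mice per group, but the samples carry no animal label. For the abundant smooth muscle gene Acta2 the spread was small, at 3302 ± 12.1 FPKM (SD, n = 3) in wild type and 3570 ± 3.38 FPKM in the libraries labelled knockout. Whether the libraries of a group hold separate mice cannot be checked, so p-values here speak only for sample-to-sample variation. That variation may be technical in part or in whole, and may not measure differences between mice.

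The scale decides how many receptors count as changed. Mitochondrially encoded RNA took 36.2% of the counts in each wild type library and 23.8% to 23.9% in each library labelled knockout. Together with 8 genes that hold nuclear copies of mitochondrial sequence, the share was 46.9% to 47.1% against 30.9% to 31.0%. Scaled by library totals, as the deposited FPKM are, the median gene gained 0.41 (log2) for the labelled knockouts compared with TMM scaling, which balances the bulk of genes. Levels of different receptors are compared below in FPKM. Differences between groups are given on the TMM scale, as CPM (counts brought to a common scaled library size) and as log2 fold changes of labelled knockout over wild type.

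The sequences just before the start sites of 4 receptor genes are shown because these genes behaved differently between the groups: Eng and Tgfbr2 rose, Tgfbr1 and Acvr2a did not pass the test. Each line gives the 250 bases before the RefSeq start site, read 5′ to 3′ on the gene's strand in build GRCm38.p6, with CG dinucleotides in capitals. The windows are chr2:32646345-32646594 (plus strand, Eng), chr9:116175364-116175613 (minus strand, Tgfbr2), chr4:47352972-47353221 (plus strand, the first of 2 listed Tgfbr1 starts) and chr2:48813859-48814108 (plus strand, Acvr2a).
Eng: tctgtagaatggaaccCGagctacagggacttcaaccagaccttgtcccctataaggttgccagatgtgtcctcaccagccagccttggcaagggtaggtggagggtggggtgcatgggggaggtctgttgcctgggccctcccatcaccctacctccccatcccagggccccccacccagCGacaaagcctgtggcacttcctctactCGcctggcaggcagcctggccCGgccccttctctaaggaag
Tgfbr2: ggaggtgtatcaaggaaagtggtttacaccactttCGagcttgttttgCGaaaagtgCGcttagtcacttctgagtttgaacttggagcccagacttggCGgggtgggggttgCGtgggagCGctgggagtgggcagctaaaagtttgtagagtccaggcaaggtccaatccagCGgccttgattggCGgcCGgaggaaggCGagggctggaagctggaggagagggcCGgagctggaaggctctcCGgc
Tgfbr1: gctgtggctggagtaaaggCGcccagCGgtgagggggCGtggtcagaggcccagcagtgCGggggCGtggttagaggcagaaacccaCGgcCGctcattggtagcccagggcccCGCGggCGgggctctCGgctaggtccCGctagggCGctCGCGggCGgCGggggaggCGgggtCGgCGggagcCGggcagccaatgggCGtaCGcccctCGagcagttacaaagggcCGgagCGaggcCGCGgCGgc
Acvr2a: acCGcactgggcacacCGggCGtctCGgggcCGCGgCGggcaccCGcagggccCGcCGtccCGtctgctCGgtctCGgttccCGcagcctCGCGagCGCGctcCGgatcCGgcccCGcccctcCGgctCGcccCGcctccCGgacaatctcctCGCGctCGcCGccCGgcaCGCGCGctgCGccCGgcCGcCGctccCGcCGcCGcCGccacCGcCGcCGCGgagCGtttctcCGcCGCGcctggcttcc

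The Eng window holds 4 CG dinucleotides and the Tgfbr2 window 12, against 29 for the first Tgfbr1 start and 49 for Acvr2a. The window of the second Tgfbr1 start holds 3, fewer than that of Eng. The median of 32851 RefSeq promoter windows of that length was 6. RefSeq promoter entries matched 8 of the 10 receptors, all but Acvrl1 and Tgfbr3. The remaining windows were rich in CG as well, with 22 for Bmpr2, which rose, 36 for Bmpr1a, 42 for Acvr1b and 46 for Acvr1. The letters GGGCGG, the core of an SP1 site, occurred on either strand in 6 of the 8, with 2 in Tgfbr1, 2 in Acvr2a, 1 in Bmpr2, 4 in Bmpr1a, 4 in Acvr1b and 6 in Acvr1. They did not occur in Eng, in Tgfbr2 or in the second Tgfbr1 window, and 32.7% of all windows hold them. GGCGCC, a BMP-responsive SMAD element, occurred once each in Tgfbr1, Bmpr1a and Bmpr2 (9.59% of all windows), and neither GTCTAGAC (0.167%), TATAAA (12.4%) nor CAGGAA (25.7%) occurred in a first-listed window. With 8 genes these are descriptions of the letters and carry no test.

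Endoglin mRNA was the most abundant of the 10 in both groups. In wild type, mean levels ran from 16.1 ± 0.541 FPKM (SD, n = 3) for Eng, through 13.2 ± 0.9997 for Bmpr1a, 11.6 ± 0.705 for Tgfbr1, 10.8 ± 0.494 for Tgfbr2 and 8.63 ± 0.595 for Acvrl1, to a lower set. That lower set held Bmpr2 at 3.79 ± 0.371, Acvr1 at 3.53 ± 0.241, Tgfbr3 at 3.27 ± 0.281, Acvr1b at 2.94 ± 0.244 and Acvr2a at 1.81 ± 0.108. Tgfbr1 and Tgfbr2 overlapped in wild type, and so did the neighbours from Bmpr2 to Acvr1b. In the libraries labelled knockout Tgfbr2 had rank 2, at 17.8 ± 0.377 FPKM, and overlapped with Bmpr1a at 17.7 ± 0.166, while Tgfbr1 moved from rank 3 to rank 5. Tgfbr3 moved from rank 8 to rank 6, above Bmpr2 and Acvr1 in every library. Eng made up 21.3% of the summed mean FPKM of the 10 receptors in wild type and 26.0% in the libraries labelled knockout.

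**Figure D1:**
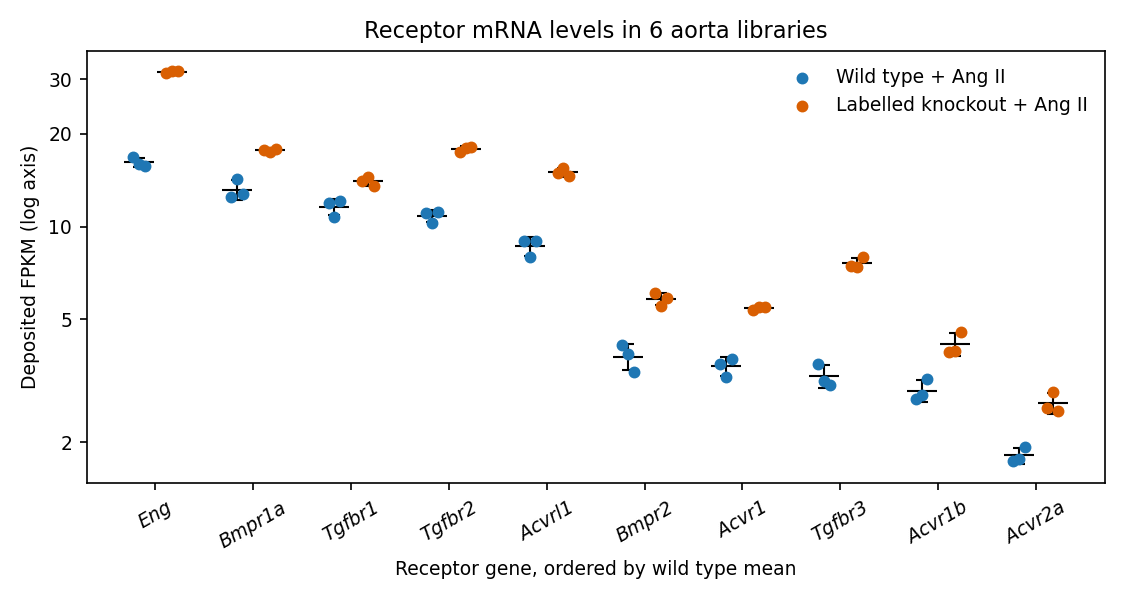
Deposited FPKM (log axis) of the 10 receptor genes in 3 wild type (blue) and 3 labelled knockout (orange) libraries, all given Ang II; points are libraries, lines are mean ± SD. On this scale every receptor lies higher in all labelled knockout libraries, as do 53.2% of all tested genes, and Tgfbr1 has the narrowest gap.

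On the TMM scale 5 of the 10 receptors rose in the libraries labelled knockout and 5 did not pass edgeR's quasi-likelihood test. Over all tested genes 24.7% changed, of which 13.2% rose and 11.5% fell as shares of the whole. These shares are the background for every list count on the TMM scale below. Tgfbr3, Eng, Acvrl1 and Tgfbr2 rose by 1.24-fold to 1.75-fold, and Bmpr2 rose by 1.16-fold. No receptor fell in this edgeR fit, although 1 (Tgfbr1) was lower at an unadjusted p of 0.0222. Tgfbr1 was called lower by DESeq2 and in 3 other edgeR fits: with a mean FPKM of at least 1, with counts divided by 4 and without wild type 2. The median log2 fold change of the 10 was 0.21, beside -0.0031 for all tested genes. Groups did not overlap, with the labelled knockouts above, for 6 receptors in CPM and 10 in FPKM, against 21.3% and 53.2% of all tested genes. No receptor had its labelled knockouts entirely below, as 19.8% of all tested genes did in CPM and 6.15% in FPKM. Scaled by library totals, all 10 receptors passed upward by edgeR, where 46.8% of all genes rose and 3.81% fell. When mitochondrial genes and their 8 nuclear copies were left out of the table, an alternative chosen after seeing the data, library totals called 6 receptors higher: the same 5 and Acvr1.

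**Figure D2:**
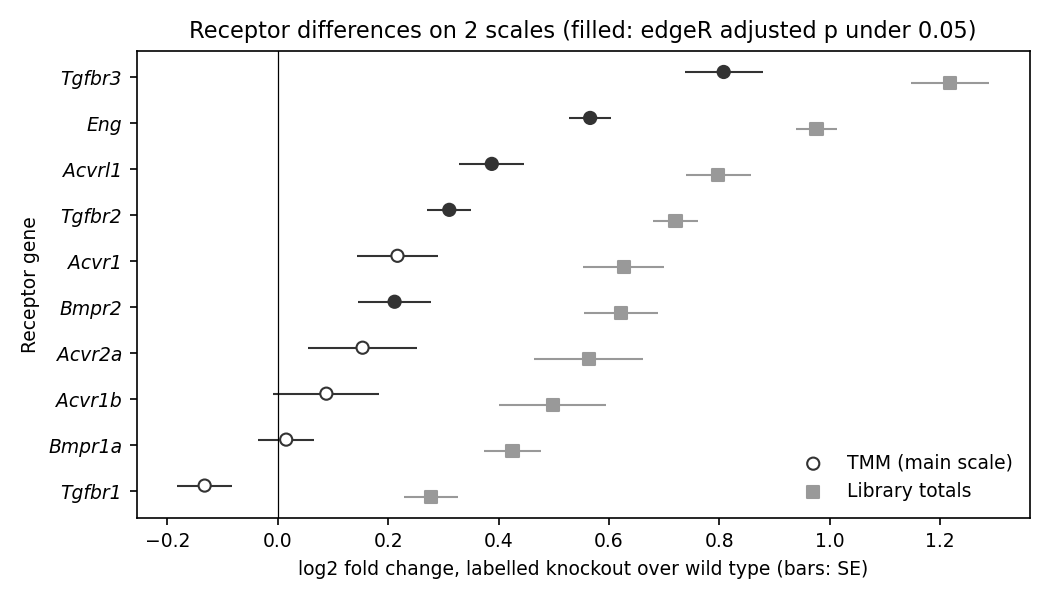
Log2 fold change ± SE of each receptor, labelled knockout over wild type, with TMM (circles) and with library totals (squares); filled symbols have an edgeR adjusted p under 0.05. The order of the receptors is the same on both scales, and Tgfbr1 lies below 0 with TMM (-0.13) and above 0 with library totals (0.28).

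Among the co-receptors, which bind ligand without a kinase of their own, both members rose. Betaglycan, encoded by Tgfbr3 (chromosome 5, 107106570 to 107289629, minus strand), presents TGF-beta to its type II receptor and also binds inhibin. Its level was 31.98, 28.3 and 27.2 CPM in wild type and 50.0, 49.7 and 53.4 CPM in the libraries labelled knockout, with every labelled knockout library above every wild type one. That is the largest difference of the 10, at 0.81 (SE 0.07, edgeR adjusted p = 9.36e-06). Endoglin, encoded by Eng (chromosome 2, 32646595 to 32682658, plus strand), assists ALK1 in endothelial cells. Eng stood at 92.4, 87.7 and 86.8 CPM in wild type and at 130.3, 132.3 and 132.6 CPM in the libraries labelled knockout (0.57, SE 0.04, edgeR adjusted p = 1.08e-06). The groups were again fully apart, and the spread within the labelled knockouts was 1.26 CPM (SD, n = 3).

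Of the type I receptors of the TGF-beta and activin branch, none passed the test. Tgfbr1 (chromosome 4, 47353222 to 47414931, plus strand) encodes ALK5, the kinase that phosphorylates SMAD2 and SMAD3 after TGF-beta binds. It measured 106, 95.9 and 107 CPM in wild type against 93.9, 96.97 and 90.8 CPM in the libraries labelled knockout, and the groups overlapped through wild type 2 and labelled knockout 2. Its log2 fold change of -0.13 (SE 0.05, edgeR adjusted p = 0.0776) turned to 0.28 with library totals (edgeR adjusted p = 0.000746). Without wild type 2 it was called lower at -0.18 (edgeR adjusted p = 0.0186). The activin receptor ALK4, encoded by Acvr1b (chromosome 15, 101174067 to 101213684, plus strand), had 16.6, 17.2 and 19.3 CPM in wild type and 17.8, 17.96 and 20.7 CPM in the libraries labelled knockout. These ranges overlapped (0.09, SE 0.10, edgeR adjusted p = 0.570).

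The type I receptors that signal to SMAD1, SMAD5 and SMAD9 differed among themselves. Acvrl1 (chromosome 15, 101128522 to 101145336, plus strand), which encodes ALK1, rose from 52.2, 46.3 and 52.1 CPM to 65.3, 68.0 and 63.7 CPM (0.39, SE 0.06, edgeR adjusted p = 0.000593). It lies 28730 bases from Acvr1b, its neighbour on the same strand, which did not pass. Acvr1, encoding ALK2 (chromosome 2, 58388644 to 58566828, minus strand), had 23.7, 21.5 and 24.5 CPM in wild type and 26.6, 27.1 and 27.2 CPM in the libraries labelled knockout. Its groups were apart but by little, and its difference of 0.22 (SE 0.07) had an edgeR adjusted p of 0.0537, or 0.0475 without wild type 3, and DESeq2 called it higher. Bmpr1a, encoding ALK3 (chromosome 14, 34410734 to 34502687, minus strand), the type I receptor for BMP2 and BMP4, measured 108, 124 and 110.3 CPM in wild type against 115, 114 and 116 CPM in the libraries labelled knockout. The labelled knockouts lay inside the wild type range (0.02, SE 0.05, edgeR adjusted p = 0.871), whereas library totals put it at 0.43 (edgeR adjusted p = 4.31e-05).

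Of the 3 type II receptors, 2 rose. Tgfbr2 (chromosome 9, 116084293 to 116175360, minus strand), the ligand-binding kinase for TGF-beta, went from 123, 114 and 124 CPM in wild type to 146, 151 and 152 CPM in the libraries labelled knockout. No library of a group reached into the other (0.31, SE 0.04, edgeR adjusted p = 0.000177). Bmpr2 (chromosome 1, 59763400 to 59879014, plus strand), the BMP type II receptor, measured 101, 94.9 and 82.9 CPM in wild type and 112, 102 and 108 CPM in the libraries labelled knockout, where wild type 1 and labelled knockout 2 were nearly equal. Its call (0.21, SE 0.07, edgeR adjusted p = 0.0395) was lost when wild type 2, wild type 3, labelled knockout 1 or labelled knockout 3 was left out, with edgeR adjusted p between 0.0664 and 0.139 in those fits. Its log2 fold change was 0.14 without wild type 3 and ran up to 0.28 when other libraries were left out. Acvr2a (chromosome 2, 48814109 to 48903269, plus strand), the activin type II receptor and the least abundant of the 10, had 13.5, 13.7 and 14.98 CPM in wild type and 15.1, 17.01 and 14.8 CPM in the libraries labelled knockout. It did not pass (0.15, SE 0.10, edgeR adjusted p = 0.307), and 7.84% of its exon bases are shared with the antisense gene Orc4, which unstranded counting could not separate. Smaller shares overlap antisense genes for Bmpr1a (4.57%), Acvrl1 (2.98%) and Eng (1.24%). For Tgfbr3, 4.54% overlap a gene on the same strand.

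Ratios of receptors within a library do not depend on how libraries are scaled, and they show which receptors changed unequally. With 3 libraries against 3, an exact two-sided permutation test cannot give a p below 0.1, and over the 15 ratios computed the smallest Benjamini-Hochberg adjusted value was 0.167. Tgfbr2 over Tgfbr1, the type II to type I ratio for TGF-beta in FPKM, was 0.929, 0.952 and 0.925 in wild type and 1.24, 1.24 and 1.33 in the libraries labelled knockout (a 1.36-fold difference, exact p = 0.1). Per length, type II mRNA was thus the lower of the pair in every wild type library and the higher in every labelled knockout library. In counts, Tgfbr2 was above Tgfbr1 in wild type as well (6784 against 5831, 6505 against 5454 and 8002 against 6906). Which of the pair is above therefore depends on the lengths used for FPKM, whereas the difference between groups does not. Acvrl1 over Tgfbr1, which sets the ALK1 against the ALK5 type I receptor, also rose in FPKM, from 0.756, 0.738 and 0.743 to 1.07, 1.07 and 1.07 (1.44-fold, exact p = 0.1). The spread of this ratio within the groups was small beside that difference, with SDs of 0.0176 in wild type and 0.00695 in the libraries labelled knockout on the log2 scale.

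Eng over Tgfbr3 was lower in the libraries labelled knockout, at 4.22, 4.31 and 4.01 against 4.67, 5.02 and 5.16 in wild type (log2 difference -0.24, exact p = 0.1), so betaglycan mRNA gained on endoglin mRNA. Bmpr1a over Acvr1 was also lower, at 3.31, 3.20 and 3.24 against 3.45, 4.39 and 3.43, where wild type 2 alone stands far above the rest (log2 difference -0.20, exact p = 0.1). Without that library the difference was -0.08. Bmpr2 over Acvr2a overlapped between the groups, with 2.37, 2.198 and 1.75 in wild type and 2.35, 1.90 and 2.32 in the libraries labelled knockout (exact p = 0.7). Set against the geometric mean of the 10, Tgfbr3 gained 1.46-fold, Eng 1.23-fold and Acvrl1 1.09-fold with groups apart. Tgfbr1 and Bmpr1a lost by the same measure, at log2 differences of -0.40 and -0.25, while groups of the other 5 receptors overlapped.

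**Figure D3:**
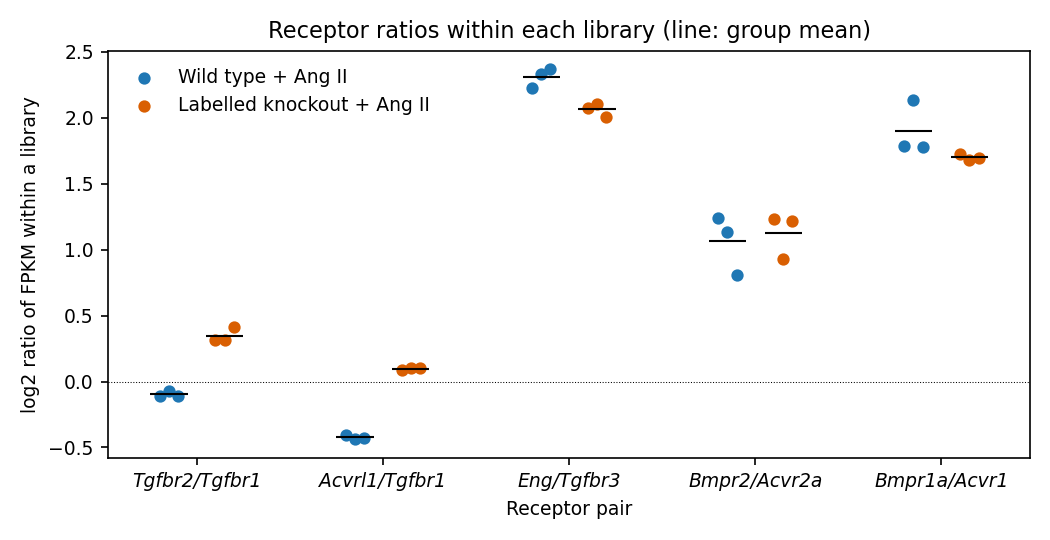
Log2 ratio of FPKM for 5 receptor pairs within each library (wild type blue, labelled knockout orange; black lines are group means). The Tgfbr2/Tgfbr1 and Acvrl1/Tgfbr1 ratios cross 0, equal levels per length, between the groups, while the Bmpr2/Acvr2a points overlap.

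Markers of blood endothelium, the cell type for which Eng and Acvrl1 are best known, were higher in the same libraries. Of 16 such markers, 12 rose, 1 fell and 3 did not pass by edgeR, with a median log2 fold change of 0.73, and none was at 0 in a library. Their summed level was 104 to 106 FPKM in wild type and 193 to 196 FPKM in the libraries labelled knockout, or 661 to 675 and 1079 to 1088 CPM. The log2 fold change was larger than that of Eng for 9 of them and larger than that of Acvrl1 for 10. Relative to the summed endothelial FPKM, a measure chosen after the values were seen, Eng stood at 16.15%, 15.15% and 14.93% in wild type. In the libraries labelled knockout it stood at 16.22%, 16.43% and 16.3%, apart from wild type and higher by little. By that FPKM measure Acvrl1 overlapped between the groups, at 8.65%, 7.58% and 8.50% against 7.72%, 8.02% and 7.42%. Tgfbr3 remained apart and higher, at 3.46%, 3.02% and 2.89% against 3.85%, 3.82% and 4.06%. Tgfbr2 lay lower by it, at 10.6%, 9.77% and 10.6% against 8.995%, 9.26% and 9.22%. These shares hold for FPKM only. In CPM the summed markers rose by more than Eng or Acvrl1 did. The CPM shares of Eng and Acvrl1 were thus lower in every library labelled knockout, and that of Tgfbr3 overlapped between the groups. In whole aorta, a change in the number of cells of a type and a change in RNA per cell cannot be told apart.

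**Figure D4:**
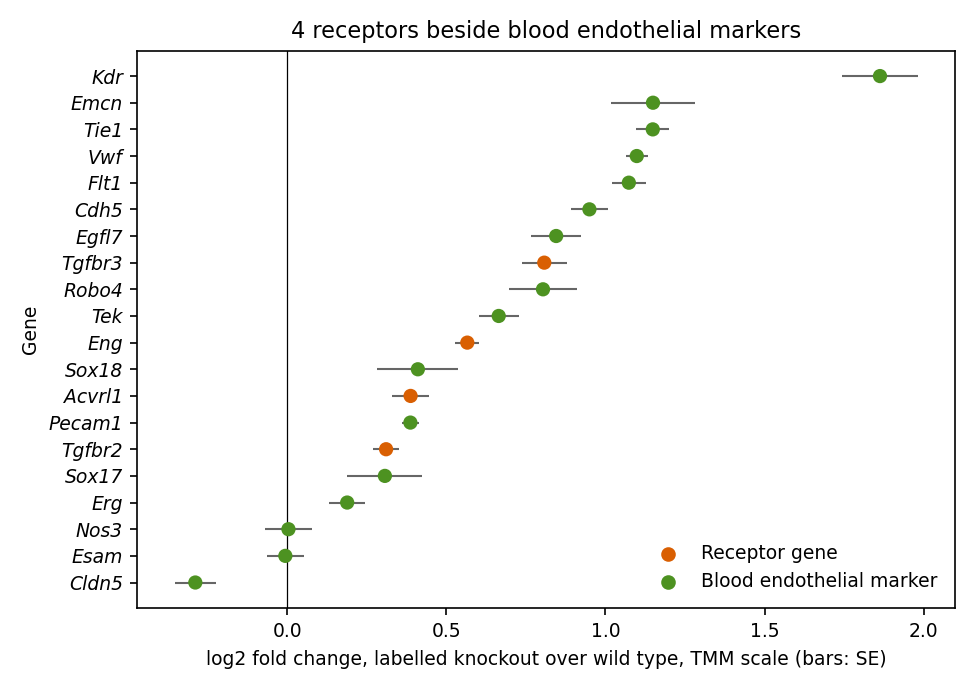
Log2 fold change ± SE (TMM scale) of 4 receptors that rose (orange) beside 16 blood endothelial markers (green). Eng (0.57) and Acvrl1 (0.39) lie within the range of the markers, which runs from -0.29 for Cldn5 to 1.86 for Kdr.

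Other cell types moved as well, and their part in the receptor values was not tested. Of 7 lymphatic endothelial markers, 3 rose and 2 fell, and their sum was 16.3 to 19.6 FPKM in wild type against 23.8 to 24.9 FPKM in the libraries labelled knockout. Of 12 macrophage markers, 10 fell and 1 rose, with sums of 406 to 421 FPKM and 252 to 260 FPKM. Smooth muscle markers counted 7 higher and 4 lower of 12, and their summed CPM lay at 25088 to 25247 in wild type, slightly above the 24696 to 24866 of the libraries labelled knockout, whereas their FPKM sums were lower in wild type, at 7386 to 7434 against 9267 to 9298. For adventitial fibroblasts, 4 of 11 markers rose and 7 fell, with sums of 2367 to 2417 CPM and 2396 to 2442 CPM that overlapped, while in FPKM they were apart, at 573 to 588 for wild type against 691 to 706 for the libraries labelled knockout. Every marker of these 4 lists had counts in all 6 libraries.

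Of the 4 kinase receptors of the family outside the 10, 1 rose. This was Bmpr1b, which encodes ALK6, a BMP type I receptor, and went up 2.28-fold from 13.6 ± 2.52 to 31.1 ± 1.23 CPM (n = 3 each, log2 fold change 1.19, SE 0.12, edgeR adjusted p = 2.52e-05). In FPKM it measured 1.68 ± 0.309 in wild type, overlapping Acvr2a, and 5.08 ± 0.197 in the libraries labelled knockout, above Acvr1b. Acvr1c, Acvr2b and Amhr2, receptors for nodal-type ligands, activin and anti-Müllerian hormone, lay at mean levels of 0.0631 to 0.292 FPKM and did not pass the test. A wider list of 22 names of receptors and co-receptors includes the 4 kinase receptors above. Of its genes 19 were tested, of which 8 rose, 4 fell and 7 did not pass (median 0.29). The neuropilins Nrp1 and Nrp2, which bind TGF-beta beside VEGF and semaphorins, rose 1.52-fold and 1.74-fold. Hjv, a BMP co-receptor known for iron regulation, was 4.19-fold lower, at 6.99 ± 1.20 against 1.67 ± 0.524 CPM.

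Ligand genes did not move in a single direction. Of 34 listed, 23 were tested, and 7 rose, 7 fell (4 without wild type 3) and 9 did not pass (median 0.07). Those that fell include Bmp1 (-0.14, but 0.27 with library totals), which is on the list by its name but encodes a protease and no ligand. With library totals 11 of the list were higher and 3 lower. The transcript of Tgfb3, a ligand of the Tgfbr1 and Tgfbr2 kinases, fell 1.45-fold from 194 ± 0.536 to 134 ± 1.44 CPM. BMP-family ligands with the smallest p rose: Bmp4, a ligand of the Bmpr1a receptor, 2.33-fold, Gdf10 2.53-fold and Bmp3 8.71-fold. By contrast, Bmp2, also a ligand of the Bmpr1a receptor, was lower by 1.48-fold, and Tgfb1 by 1.43-fold. With library totals neither Bmp2 (-0.15, edgeR adjusted p = 0.44) nor Tgfb1 (-0.10, edgeR adjusted p = 0.27) passed. The genes for the ligands of endoglin and ALK1 were hardly detected: Bmp10 had 0 counts in every library, and Gdf2, which encodes BMP9, had 12 counts in labelled knockout 2 and 0 elsewhere (both named after their values were seen). A count of 0 does not exclude low expression. Low deposited counts cluster at multiples of 4, so no upper limit per library is given. Of 28 proteins that bind or block ligands, 27 were tested, and 11 rose and 9 fell (median 0.10). Among these, Ltbp4, which anchors latent TGF-beta, rose 2.29-fold, the activin-binding Fst 3.46-fold and the BMP and Wnt antagonist gene Sost 2.01-fold, and Thbs1, an activator of latent TGF-beta, fell 5.03-fold.

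Downstream of the receptors, transcripts of the inhibitory SMADs were higher. Smad7, whose product blocks type I receptors and recruits ligases to them, rose from 24.4 ± 1.12 to 42.6 ± 2.04 CPM and Smad6, the inhibitor of the BMP branch, from 19.9 ± 1.81 to 29.8 ± 0.867 CPM. Of 18 SMADs and nuclear partners 6 rose, 2 fell and 10 did not pass (median 0.08). The count that fell was 1 without wild type 2 and 0 when wild type 3, or labelled knockout 1 or 2, was left out, by edgeR at an adjusted p under 0.05. Smad9 rose 1.80-fold and Ski, a corepressor, 1.22-fold. Among 33 genes that act on receptor activity, traffic and turnover, 7 rose (4 when wild type 3, or labelled knockout 1 or 2, was left out), 9 fell and 17 did not pass (median -0.05). With library totals 26 of them were higher and 1 lower (median 0.36), where 46.8% of all tested genes rose and 3.81% fell. On that scale the SMADs and nuclear partners had 13 higher and 0 lower (median 0.49). The caveolin gene Cav1, linked to receptor internalization, and the ligase gene Wwp2 rose 1.32-fold and 1.35-fold. Mmp14, a protease that sheds betaglycan and endoglin, fell 2.14-fold, and Fkbp1a, whose product holds type I receptors inactive, was lower by 1.17-fold, though library totals turned it to 0.18. Of 16 kinases and adaptors beside the SMADs, 3 rose (Rock1, Xiap and Map2k6, at 0.21, 0.33 and 0.81) and 1 fell (Rhoa at -0.18, but 0.23 with library totals), with a median of 0.02. That count is near the 24.7% of all tested genes that changed. Without wild type 2, 3 of the 16 fell, and the call of Map2k6 was lost when wild type 1 or 2, or labelled knockout 1 or 2, was left out (edgeR adjusted p up to 0.108).

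Targets of the SMAD branches differed in direction. Of 14 targets of SMAD1, SMAD5 and SMAD9, the effectors of ALK1, ALK2 and ALK3, 10 rose, 1 fell and 3 did not pass, with a median log2 fold change of 0.64. The single fall was not called without wild type 2 or without any 1 of the labelled knockouts. Id1, an inhibitor of helix-loop-helix factors, rose 2.89-fold from 34.7 ± 2.69 to 100.4 ± 4.002 CPM, Id3 rose 1.62-fold and Id4 2.53-fold. Of 23 targets of SMAD2 and SMAD3, the effectors of ALK5 and ALK4, 14 fell, 3 rose and 6 did not pass (median -0.29). The 4 with the smallest p were matrix genes, Eln, Fn1, Col3a1 and Col1a1, which fell between 1.68-fold and 2.30-fold. With library totals the median of this list turned to 0.12, with 12 higher and 7 lower, while the SMAD1, SMAD5 and SMAD9 list stood at 1.05 with 12 higher and 0 lower at an edgeR adjusted p under 0.05. On that scale the median of all tested genes was 0.41, and 46.8% of them were higher and 3.81% lower. Smad7 is on both target lists, and the overlap of the lists with cell type markers was not tested.

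**Figure D5:**
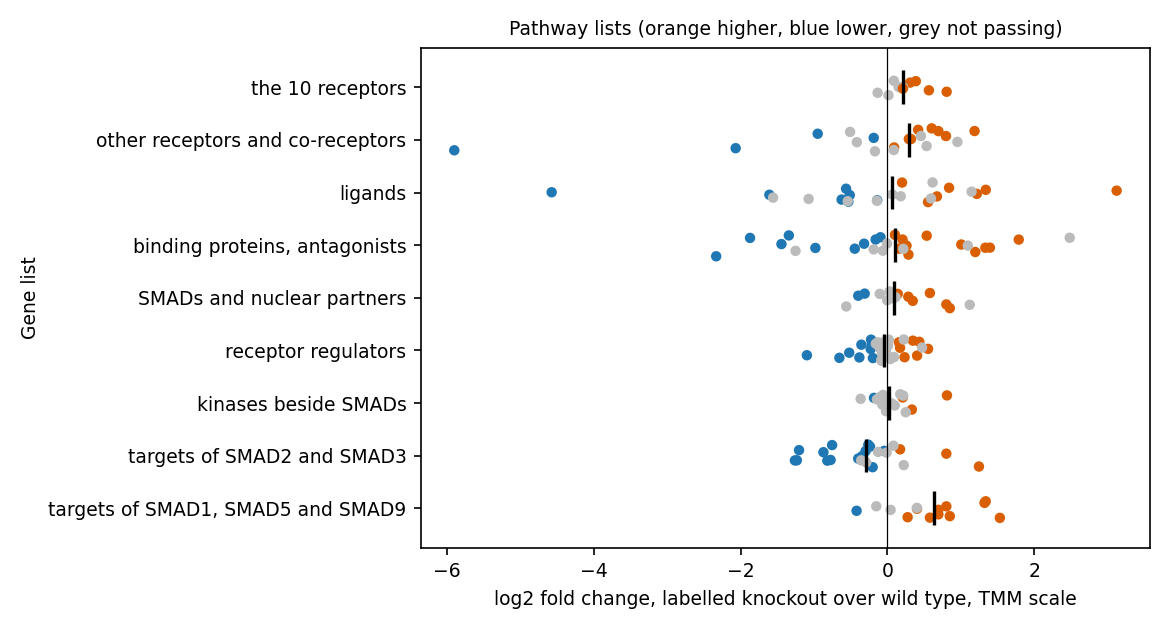
Log2 fold changes (TMM scale) of tested genes in the receptor set and 8 pathway lists; orange points rose, blue points fell, grey points did not pass edgeR's test, and black lines are medians. The medians run from -0.29 for SMAD2 and SMAD3 targets to 0.64 for SMAD1, SMAD5 and SMAD9 targets, with the 10 receptors at 0.21.

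The genes whose pattern over the 6 libraries was closest to a receptor were found by the root mean square difference of centred log2 CPM among 4540 genes with a mean of at least 5 FPKM. Closest to Eng were Ltbp2, a relative of the latent TGF-beta binding proteins, at 0.018, and Gpx3, a secreted glutathione peroxidase, at 0.023. Tef and Tmem119 came nearest to Tgfbr3, at 0.033 and 0.037, and Abca2 and Dnajb2 to Acvrl1, at 0.016 and 0.032. For Tgfbr2 these were Grk5 and Grina (both 0.021), and for Bmpr2 Eif4e3 and Nop56 (0.031 and 0.042). The receptors that did not pass had Smndc1 and Taldo1 (Tgfbr1), Srprb and Coro6 (Bmpr1a), Ddx39b and U2af2 (Acvr1), Prpsap1 and P3h4 (Acvr1b), and Upf1 and Eps15 (Acvr2a) nearest, at 0.0099 to 0.037. With 6 libraries in 2 groups, many genes share such a pattern.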

How the data were processed

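The deposited table, made by the authors, holds counts and FPKM per gene, per the file headers, and both were used. Bowtie 0.12.2, HISAT2 2.0 and build mm8 appear in the submitters' processing notes, with no role. Counting tool, annotation and use of strand: not given in the sources used here. Gene coordinates equal those of GENCODE M21 (GRCm38) for 92.1% of genes and for 7 of the 10 receptors, so they are printed as deposited. Because low values of the deposited counts cluster at multiples of 4, the authors' values were treated as estimated counts and rounded, which changed none. The deposited FPKM, scaled by the authors, follow library totals.

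Genes passing filterByExpr were tested with edgeR 4.0.16 (R 4.3.3; quasi-likelihood, TMM, Benjamini-Hochberg over 20132 genes, threshold 0.05), and steps were tested on simulated data. For replicate libraries of a group, the median variance over mean of counts was 7.25 for wild type and 6.32 for labelled knockouts (genes with a mean count above 1000). Alternatives used DESeq2 1.42.0, limma 3.58.1 on FPKM, other scalings and filters, the replicate number as a block and each library left out. Nuclear copies were found with BLAST 2.17.0 (97% identity over 100 bases). The receptors and lists were chosen with earlier results of these data known. Named genes are the 10 receptors, Josd2, the kinase receptors outside the 10, up to 4 genes with the smallest p per pathway list, and the 2 nearest patterns per receptor. Others, among them Acta2, Bmp1, Bmp2 and Tgfb1, were named after their values were seen.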

Additional observations from a re-analysis of the deposited data

How the results depend on the processing

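Eng, Tgfbr3, Acvrl1 and Tgfbr2 kept their direction and their call in all 20 alternatives, with log2 fold changes of 0.55 to 0.98, 0.76 to 1.22, 0.34 to 0.80 and 0.28 to 0.72. Receptors called higher numbered 10 with library totals and with limma on log2(FPKM + 1) and log2(FPKM + 0.1), and 8 with library totals after mitochondrial genes were left out, against 5. Leaving out 1 library gave 4 to 5 higher and 0 to 1 lower. Tgfbr1 was the 1 receptor called lower with DESeq2, a mean FPKM of at least 1, counts divided by 4 and without wild type 2. It turned upward with library totals (0.28, or 0.0225 without mitochondrial genes) and with limma (0.26 and 0.28). The Bmpr1a log2 fold change turned below 0 at a mean FPKM of at least 1 (-0.002473), with counts divided by 4 (-0.002208) and when a library was left out (-0.02047 to 0.08322, below 0 without wild type 1 or 3). Fkbp1a (0.18, and 0.18 in both limma fits) and Rhoa (0.23, limma 0.22 and 0.23) turned with library totals. Of all genes changed between the groups, 4981 in number, all genes higher were 2658 and all genes lower 2323. These were 10193 (9425 and 768) with library totals, and 10314 (9447 and 867) and 10196 (9330 and 866) with limma. Library totals without mitochondrial genes gave 4911 higher and 1361 lower. The pathway list genes higher and pathway list genes lower, 49 and 46, became 110 and 19 with library totals, and 109 and 19, and 108 and 18, with limma. With the nuclear copies left out too, a setting chosen after seeing the data, library totals gave 2963 higher and 2082 lower. The Bmpr2/Acvr2a ratio (log2 differences -0.0652 to 0.162 when a library was left out, below 0 without wild type 3) and the ratio of Bmpr2 to the mean of the 10 (-0.1354 to 0.000677, above 0 without wild type 1) changed sign. With the replicate number as a block, 5 receptors were higher and 4560 genes changed, and no receptor call differed. Same-numbered libraries did not deviate together (correlations -0.0288 to -0.00082), and neither did differently numbered ones (-0.0125 to 0.0308). Such values cannot show whether libraries were paired by design. Acvr2a and Acvr1b had the fewest counts of the 10, from 744 up, and SEs of 0.10. Leaving out 1 library gave 3756 to 4458 changed genes.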

Other observations

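The remaining marker lists describe what else the aortas held beside the receptors. T cell markers were higher for 5 of 10 and lower for 0 by edgeR (summed 1.65 to 3.13 FPKM in wild type and 4.66 to 6.34 in the libraries labelled knockout). Of 8 B cell and plasma cell markers 2 rose and 1 fell (27.1 to 51.96 against 107 to 118 FPKM), and of 9 adipocyte markers 5 rose. Schwann cell and nerve markers counted 1 higher and 2 lower of 8, and striated muscle markers 1 higher and 2 lower of 9 tested. Of 9 platelet and red cell markers 6 fell (428 to 437 against 390.1 to 395 FPKM). All 8 tested markers of kidney, lung and seminal vesicle fell. For mesothelium, 2 of 6 markers could be tested and neither passed, at a summed 0.125 to 0.409 FPKM in wild type and 0.240 to 0.399 in the libraries labelled knockout.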
